A study of Rattus norvegicus with 22 samples.

Results

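The S100 family consists of small calcium-binding proteins with a pair of EF-hand loops. Most members work as dimers that change shape on binding calcium and then bind a partner protein, and several are also released from cells and act on surface receptors. S100A8 and S100A9 form calprotectin, an abundant cytosolic complex of neutrophils that stressed squamous epithelium also makes. S100A1 is known from striated muscle, S100B from Schwann cells and other glia, S100A10 and S100A11 from complexes with annexins, and most of the genes lie in the epidermal differentiation region of the genome beside the cornified envelope genes. Expression of 10 members of this family was measured here in rat tongue: S100a1, S100a4, S100a6, S100a8, S100a9, S100a10, S100a11, S100a13, S100a16 and S100b. They were taken by gene name from the 26583 gene names on the array, with the brightest probe of each gene. Each gene had 1 probe, except S100b with 2.

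The samples were 11 pairs of tongue tissue, each an oral squamous cell carcinoma (OSCC) and a phenotypically normal piece from beside it, from 11 male F344 rats. All the rats had drunk water with 4-nitroquinoline-1-oxide (4-NQO), a carcinogen that damages DNA, at 20 ppm for 10 weeks, starting at 7 to 9 weeks of age, and tissue was taken 23 to 26 weeks after the first exposure, at a labelled age of about 33 weeks. The normal pieces thus came from exposed rats, although their labels give no treatment and the titles of all 22 samples call them untreated. Both pieces were bulk tissue from the part of each tongue kept frozen for molecular work. In these samples fewer cells of a type and less RNA per cell cannot be told apart. Squamous and muscle markers were present in both tissues: Krt5, a keratin of basal epithelial cells, and Acta1, skeletal muscle actin, were well above background on all 22 arrays.

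Scanning took 2 days: the first held all 11 normal arrays with the OSCC arrays of animals 4 and 9, and the second held 9 OSCC arrays. Normal tissue lay on 3 slides and OSCC on 4 others, so slide and tissue cannot be told apart. The changes of animals 22 and 24 were least like those of the other pairs (correlation across probes with the mean of the others 0.21 and 0.26), those of animals 17 and 21 were intermediate (0.47 and 0.47), and the rest lay between 0.76 and 0.84. For the called members whose difference moved, it is also given without such pairs. All levels are log2 signal relative to the 75th percentile of the array, so 0 is the signal of the probe at that percentile. Every member was well above background on every array on which it had a value, and none was saturated. The S100a8 spot of the OSCC of animal 25 was marked by the scanner software as an outlier and was left out, so S100a8 has 10 pairs.

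Of the 10 genes, 9 lie on rat chromosome 2 and S100b on chromosome 20. In assembly GRCr8 the order on chromosome 2 is S100a1, S100a13, S100a16, S100a4, S100a6, S100a8 and S100a9, followed at a distance of 3384509 bases by S100a11 and S100a10. The gap between S100a1 and S100a13 is 673 bases, and that between S100a8 and S100a9 is 22717 bases. The probes of the first 7 lie between 182784857 and 182987706 of chromosome 2 in the rn4 positions of the array annotation, those of S100a11 and S100a10 between 186620424 and 186654292, and that of S100b at chr20:12791789-12791848. RefSeq also lists 5 pseudogenes of S100a11 and 1 of S100a10, and whether those probes bind transcripts of such copies was not tested.

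Promoters of 7 members were found in the RefSeq table (GRCr8, 250 bases before the start of the gene to 50 after it). They are shown for the 3 genes that both changed between the tissues and have an entry, S100a9 at chr2:178490573-178490872 on the minus strand, S100a13 at chr2:178296770-178297069 on the plus strand and S100b at chr20:12381032-12381331 on the minus strand. Capitals mark matches, on either strand, to the TATA box TATAAA, the AP-1 motif TGANTCA and the C/EBP-type motif TTNNGNAA.
S100a9: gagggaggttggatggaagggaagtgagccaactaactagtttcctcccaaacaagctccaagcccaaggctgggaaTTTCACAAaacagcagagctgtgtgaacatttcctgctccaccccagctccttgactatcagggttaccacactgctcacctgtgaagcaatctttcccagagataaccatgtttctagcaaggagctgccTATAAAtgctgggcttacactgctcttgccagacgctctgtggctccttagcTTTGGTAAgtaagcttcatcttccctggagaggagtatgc
S100a13: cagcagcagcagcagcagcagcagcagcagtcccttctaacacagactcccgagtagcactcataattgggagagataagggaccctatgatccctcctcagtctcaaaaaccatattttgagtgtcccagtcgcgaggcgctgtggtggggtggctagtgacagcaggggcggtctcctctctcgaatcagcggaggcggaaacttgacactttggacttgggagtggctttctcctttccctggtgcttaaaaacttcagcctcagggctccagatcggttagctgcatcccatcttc
S100b: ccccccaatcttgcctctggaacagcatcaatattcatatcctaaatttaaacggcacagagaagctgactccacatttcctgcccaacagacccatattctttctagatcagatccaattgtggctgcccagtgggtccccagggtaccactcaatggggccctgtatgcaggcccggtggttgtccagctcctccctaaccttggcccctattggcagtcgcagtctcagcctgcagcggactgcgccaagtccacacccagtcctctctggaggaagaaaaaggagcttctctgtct

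The S100a9 promoter holds TATAAA 42 bases before the start and 2 matches to TTNNGNAA, the first 173 bases before the start and the other 11 bases after it. None of the 3 motifs is found in the S100a13 or S100b window. Among all 33469 promoters of the table, TATAAA occurs in 14.2%, TGANTCA in 7.33% and TTNNGNAA in 41.3%. Of the 7 members with an entry, S100a4 and S100a9 hold TATAAA, S100a9 holds TTNNGNAA and none holds TGANTCA.

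Of the 10 members, S100a8 and S100a9 were higher in OSCC, S100a1, S100a13 and S100b were lower, and 5 were not called. To be called, a gene needed a mean change of 2-fold or more and an adjusted p under 0.05 in the limma fit over all 30367 probes. In that fit 13.8% of probes were called, 6.86% higher and 6.97% lower. Among the 17000 probes well above background on at least 11 arrays, a property all members share, 7.95% were called higher and 10.4% lower. At any fold, 6 of the 10 members passed an adjusted p of 0.05, against 44% of all probes. The median log2 difference was 0.12 over the members and -0.24 over all probes. No member had tissue ranges that did not overlap, a pattern shown by 1.65% of probes.

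**Figure D1:**
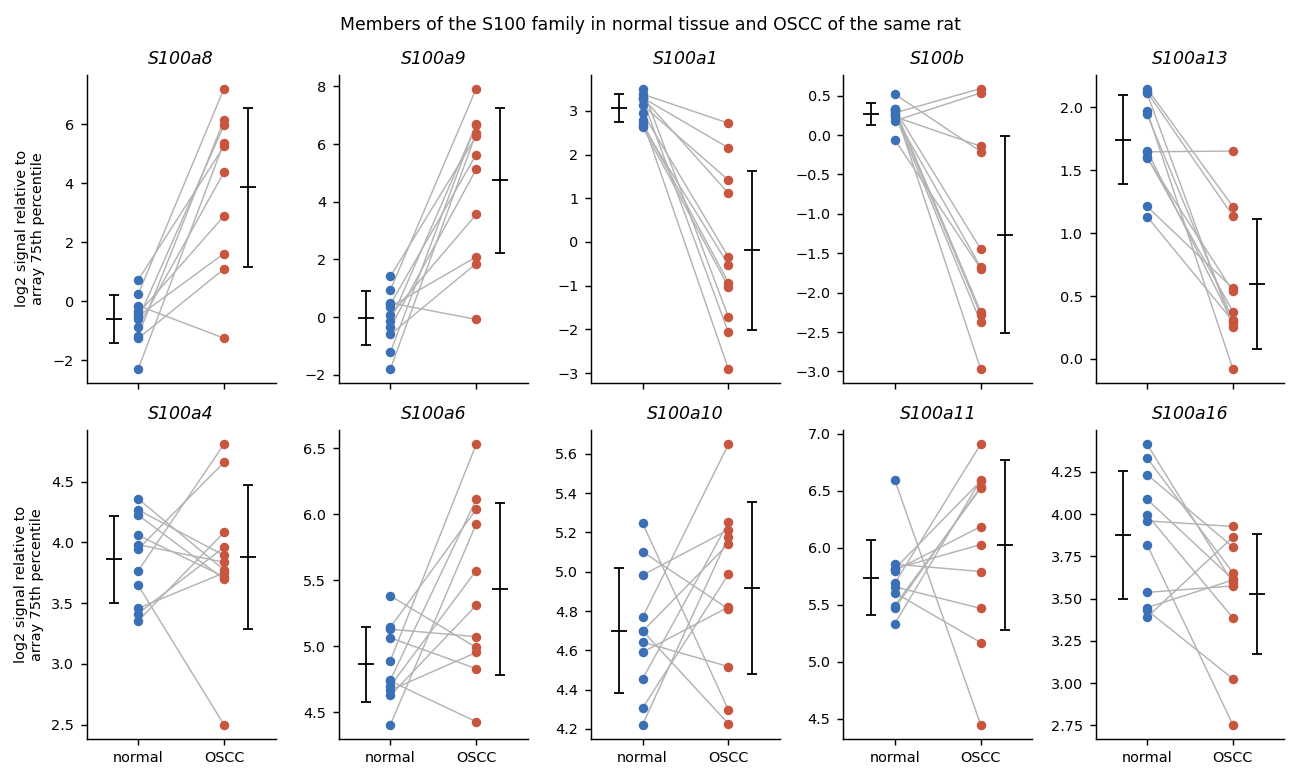
Level of each S100 gene (log2 signal relative to the array's 75th percentile) in normal tissue and OSCC, with lines joining the tissues of 1 rat and bars at the mean ± SD of each tissue (11 arrays; 10 for S100a8 in OSCC). S100a8 and S100a9 run upward in every pair but 1, S100a1 runs downward in all 11 pairs, and the OSCC values spread more widely than the normal ones in every panel but that of S100a16.

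S100a8 and S100a9, the calprotectin subunits, showed the largest changes of the family. Normal values of S100a9 lay between -1.80 and 1.41, with a median of 0.06, and OSCC values between -0.08 and 7.93, with a median of 5.64. Its level was higher in OSCC in 10 of 11 pairs, and 10 of the 11 OSCC values lay above the highest normal value. The mean difference was 4.78 on the log2 scale (SE 0.75), a 27.5-fold rise with a 95% confidence interval of 8.98 to 84.4 (limma, adjusted p = 0.000713). For S100a8 the normal range was -2.31 to 0.72 (median -0.52) and the OSCC range -1.26 to 7.21 (median 4.82). The difference was 4.51 (SE 0.79), a 22.7-fold rise with an interval of 6.84 to 75.7 (limma, adjusted p = 0.00157). With the outlier spot of animal 25 kept, at a level of 4.63, it was 4.55 (limma, adjusted p = 0.000812).

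The exception was the same animal for both genes. In animal 24 the OSCC value of S100a9 was lower than the normal one by 0.57 and that of S100a8 by 1.11. Without animal 24 the S100a8 difference was 5.13, and without animals 21, 22 and 24 it was 5.96 for S100a8 and 6.12 for S100a9. These pairs held the smallest differences of both genes, so leaving them out raises the means by construction. In the 2 pairs scanned on 1 day, animals 4 and 9, S100a9 was higher in OSCC by 5.49 and 7.94 and S100a8 by 5.25 and 7.33. With scan day as a further term of the fit, the estimates were 6.71 for S100a9 and 6.29 for S100a8, both with an adjusted p of 0.085.

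The 2 calprotectin genes moved together from pair to pair. Over the 9 pairs that remain without animal 24, which lay apart from the rest, Pearson's r between their log2 differences was 1.00 (exact permutation p = 2.8e-06, the smallest that 9 pairs can give, adjusted p = 0.00012 over the 45 pairs of members), Spearman's rho was 1.00 (exact permutation p = 5.5e-06, adjusted p = 0.00025), and r was 0.99 without the 2 pairs farthest from the median. The smallest S100a9 difference among these was 1.73, in animal 21, with 2.13 for S100a8, and the largest was 8.20, in animal 11, with 7.69 for S100a8.

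**Figure D2:**
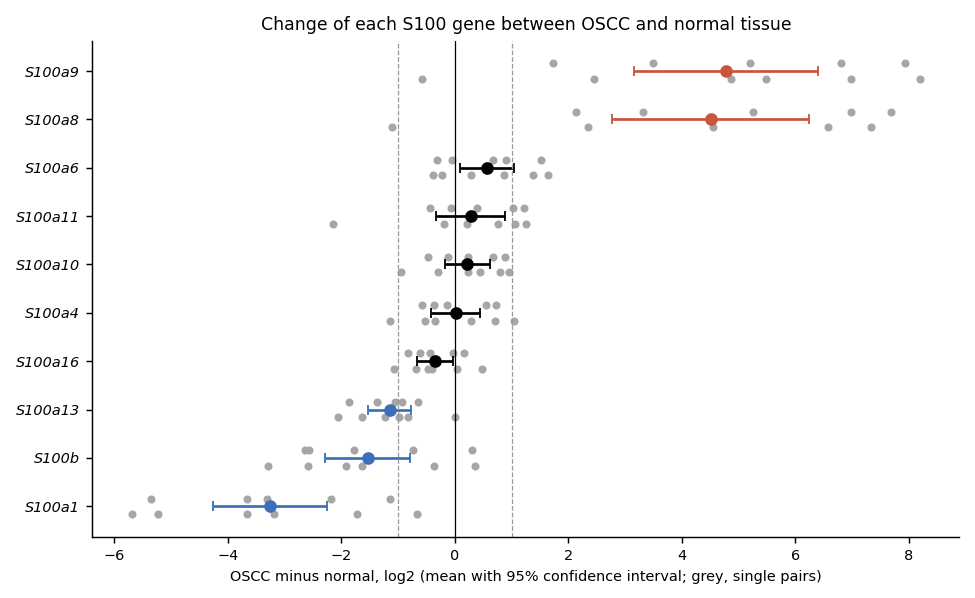
Difference of each S100 gene between OSCC and normal tissue (log2) with its 95% confidence interval from the limma fit; grey points are the single pairs, and dashed lines mark a 2-fold change either way. The intervals of S100a8 and S100a9 lie above 2-fold, that of S100a1 lies below it, and those of S100a4, S100a10 and S100a11 cross 0.

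Neutrophil markers rose with the calprotectin genes. Of the 16 genes of the neutrophil list on the array, 11 were called higher and none lower, among them Csf3r, the receptor of the neutrophil growth factor G-CSF (log2 difference 3.33, well above background on 8 of 11 normal arrays), and Ncf4, a subunit of the phagocyte oxidase (1.57). On all 22 arrays the granule genes Mpo, Ngp and Ltf stayed below the detection limit of the scanner software, and 2 of the 16 genes were detected on every array. The mean log2 level of the list ran from -4.55 to -3.97 in normal tissue and up to -1.25 in OSCC, where the lowest value lay within the normal range, and it was higher in OSCC in all 11 pairs. The pairs fell into separate groups by this change. In 7 pairs (animals 4, 9, 11, 13, 16, 25 and 26) the list was higher by 1.84 to 3.29 and S100a9 by 4.86 to 8.20. In the other 4 (animals 17, 21, 22 and 24) the list differed by 0.52 to 0.84 and S100a9 by -0.57 to 3.50. The correlation over all 11 pairs (r = 0.85, and 0.64 without animals 21, 22 and 24) was therefore not tested. Within the 7 pairs r was 0.26 (exact permutation p = 0.61, adjusted p = 0.75) and rho was 0.14 (exact permutation p = 0.78, adjusted p = 0.97).

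Within 1 tissue the relation of S100a9 to the neutrophil list could be measured over all 11 arrays. In OSCC r was 0.88 (permutation p = 0.00064, adjusted p = 0.0080 over the 180 relations within a tissue), rho was 0.69 (permutation p = 0.023, adjusted p = 0.11), and r was 0.79 without the 2 arrays farthest from the median and 0.64 without animals 21, 22 and 24. In normal tissue r was 0.75 (permutation p = 0.0084, adjusted p = 0.039), rho was 0.70 (permutation p = 0.021, adjusted p = 0.10), and r was 0.67 without the 2 farthest. Of the list, Mpo, Elane, Mmp8, Camp, Ngp, Ltf, Trem1, Padi4 and Clec4d were well above background on 0 normal arrays. The highest normal list values were those of animals 25 and 26, on the normal arrays with the lowest 75th percentiles. The part of background signal and scaling in the normal relation was not tested. For S100a8 in OSCC r was 0.86 over 10 arrays (permutation p = 0.0021, adjusted p = 0.014) and rho was 0.75 (permutation p = 0.018, adjusted p = 0.091), and r was 0.60 without animals 21, 22 and 24. By rank none of these passed after adjustment. In OSCC S100a9 also followed the squamous list, with r of 0.83 over 10 arrays without animal 24 (permutation p = 0.0039, adjusted p = 0.023) and rho of 0.78 (permutation p = 0.011, adjusted p = 0.064). Over the pairs both calprotectin genes followed the macrophage list. For S100a8 r was 0.90 over 9 pairs without animal 24 (exact permutation p = 0.0015, adjusted p = 0.011) and rho was 0.83 (exact permutation p = 0.0083, adjusted p = 0.038). For S100a9 r was 0.75 over 11 pairs (permutation p = 0.0091, adjusted p = 0.033) and rho was 0.75 (permutation p = 0.011, adjusted p = 0.042). Both genes also ran against the muscle list over the pairs. For S100a9 r was -0.79 over 11 pairs (permutation p = 0.0039, adjusted p = 0.02) and rho was -0.78 (permutation p = 0.0063, adjusted p = 0.038). For S100a8 r was -0.79 over 9 pairs without animal 24 (exact permutation p = 0.012, adjusted p = 0.041). Without animals 21, 22 and 24 r with the muscle list was -0.33 for S100a9 and -0.48 for S100a8, against 0.69 and 0.84 with the macrophage list. These relations do not tell neutrophils, macrophages, epithelium and muscle apart for these genes. Which cells held the S100a8 and S100a9 RNA was not tested.

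S100a1, which in striated muscle binds calcium pumps and release channels, was the member that fell most. Its normal values lay between 2.63 and 3.51 (median 3.13), and its OSCC values between -2.91 and 2.72 (median -0.53). All 11 pairs were lower in OSCC, as were 5.25% of all probes, while 4.61% were higher in all pairs. In 10 of 11 OSCC samples the value lay below the lowest normal value, and the exception was animal 24. The difference was -3.25 (SE 0.47), a 9.54-fold fall in which the OSCC to normal ratio had a 95% confidence interval of 0.0521 to 0.211 (limma, adjusted p = 0.000477). Animals 4 and 9, scanned on 1 day, gave -3.66 and -3.30. With scan day as a further term the estimate was -3.48, with an adjusted p of 0.085.

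The list of skeletal muscle markers fell in most of the same pairs. Of the 16 muscle genes on the array, all well above background on every array, 12 were called lower and none higher, such as Ckm, muscle creatine kinase (log2 difference -2.19), and Atp2a1, the calcium pump of fast fibres (-2.25). Actn3 of the list went the other way (1.80, higher in 8 of 11 pairs) without being called. Muscle genes outside this list also differed: of 7 genes typical of slow fibres, given at the end, 5 were called higher. The mean log2 level of the list ran from 5.15 to 6.21 in normal tissue and from 0.86 to 7.20 in OSCC. Over the 8 pairs left when animals 11, 13 and 25 are set apart by the widest gap, the S100a1 difference followed that of the muscle list with r of 0.90 (exact permutation p = 0.0032, adjusted p = 0.019 over 90 relations), rho of 0.76 (exact permutation p = 0.037, adjusted p = 0.097) and r of 0.91 without the 2 farthest pairs. Over the 11 OSCC arrays r was 0.97 (permutation p = 1e-05, the smallest that these permutations can give, adjusted p = 0.0018) and rho was 0.95 (permutation p = 3e-05, adjusted p = 0.0026). On these arrays r was also 0.91 with the adipocyte list and -0.91 with the neutrophil list (permutation p = 0.00024 and 0.00033, adjusted p = 0.006 each). With the macrophage list r was -0.86 (permutation p = 0.0009, adjusted p = 0.0088). Over 10 arrays it was -0.92 with the fibroblast list and -0.87 with the squamous list (permutation, adjusted p = 0.006 and 0.011). The nerve, cornifying and serous gland lists did not pass. Among normal arrays, over 9 without animals 4 and 13, r with the muscle list was 0.07 (exact permutation p = 0.85, adjusted p = 0.92). Over all 11 normal arrays it was 0.49, so the value there depends on the arrays kept.

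The 2 measures did not move by the same amount. In animals 21, 22 and 24 the muscle list was higher in OSCC than in normal tissue, by 1.57, 0.62 and 1.28, while S100a1 in these pairs was lower by 1.72, 1.15 and 0.66. In animals 11, 13 and 25 the list was lower by 4.36, 4.34 and 4.14 and S100a1 by 5.23, 5.69 and 5.35. Without animals 21, 22 and 24 the S100a1 difference was -4.03. These pairs held its smallest falls, so leaving them out enlarges the mean fall by construction.

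S100b, the member best known from Schwann cells and glia, had the narrowest range of the family in normal tissue and one of the wider ones in OSCC. Normal values lay between -0.06 and 0.52 (median 0.28, SD 0.14), and OSCC values between -2.97 and 0.59 (median -1.68, SD 1.25). The SD in OSCC was 9.02 times that in normal tissue, against a median ratio of 1.64 over all probes. Of the 11 OSCC values, 9 lay below the lowest normal value, and those of animals 17 and 24 lay above the highest. The difference was -1.53 (SE 0.35), a 2.89-fold fall with an OSCC to normal ratio between 0.206 and 0.580 (limma, adjusted p = 0.00491). It was -1.77 and -1.64 in animals 4 and 9, -2.01 without animals 21, 22 and 24, and -1.70 with scan day as a further term (adjusted p = 0.16). In animals 21, 22 and 24 S100b differed by -0.73, -0.37 and 0.35, so leaving them out enlarges the mean fall by construction. The second S100b probe, spotted 10 times, was well above background on 0 arrays.

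The S100b difference gave a larger r with the muscle list than with the nerve list, 0.86 against 0.68 over all 11 pairs. The difference between these correlations was not tested, and the lists differ in signal. All 16 muscle genes but only 6 of the 15 nerve genes were well above background on every array. Over all 11 pairs r with the muscle list was 0.86 (permutation p = 0.0013, adjusted p = 0.011), rho was 0.90 (permutation p = 0.0005, adjusted p = 0.0087) and r was 0.89 without the 2 farthest pairs. With the nerve and Schwann cell list r was 0.54 over 10 pairs without animal 24 (permutation p = 0.11, adjusted p = 0.22). Of the 15 nerve genes on the array 9 were called lower and none higher, and the glial connexin Gjc3 was well above background on 0 arrays. The mean log2 level of the nerve list ran from -2.54 to -1.81 in normal tissue and from -4.12 to -1.89 in OSCC. Among OSCC arrays, the 7 with low S100b (those without animals 17, 21, 22 and 24) gave r of 0.88 with the nerve list (exact permutation p = 0.011, adjusted p = 0.050) and rho of 0.96 (exact permutation p = 0.0028, adjusted p = 0.020). On the same 7 arrays the muscle list gave an r of 0.88 as well (exact permutation p = 0.012, adjusted p = 0.051), with rho of 0.82 (exact permutation p = 0.034, adjusted p = 0.14). Over all 11 OSCC arrays r was 0.90 with the muscle list and 0.64 with the nerve list. Without animals 21, 22 and 24 the values were 0.82 and 0.67, so the nerve value depends on the arrays kept. In normal tissue r with the nerve list was -0.12 over 10 arrays (permutation p = 0.78, adjusted p = 0.87). S100b moved against the fibroblast list (r = -0.89, permutation p = 0.00013, adjusted p = 0.011) and the macrophage list (r = -0.87, permutation p = 0.00061, adjusted p = 0.011) over the 11 pairs.

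**Figure D3:**
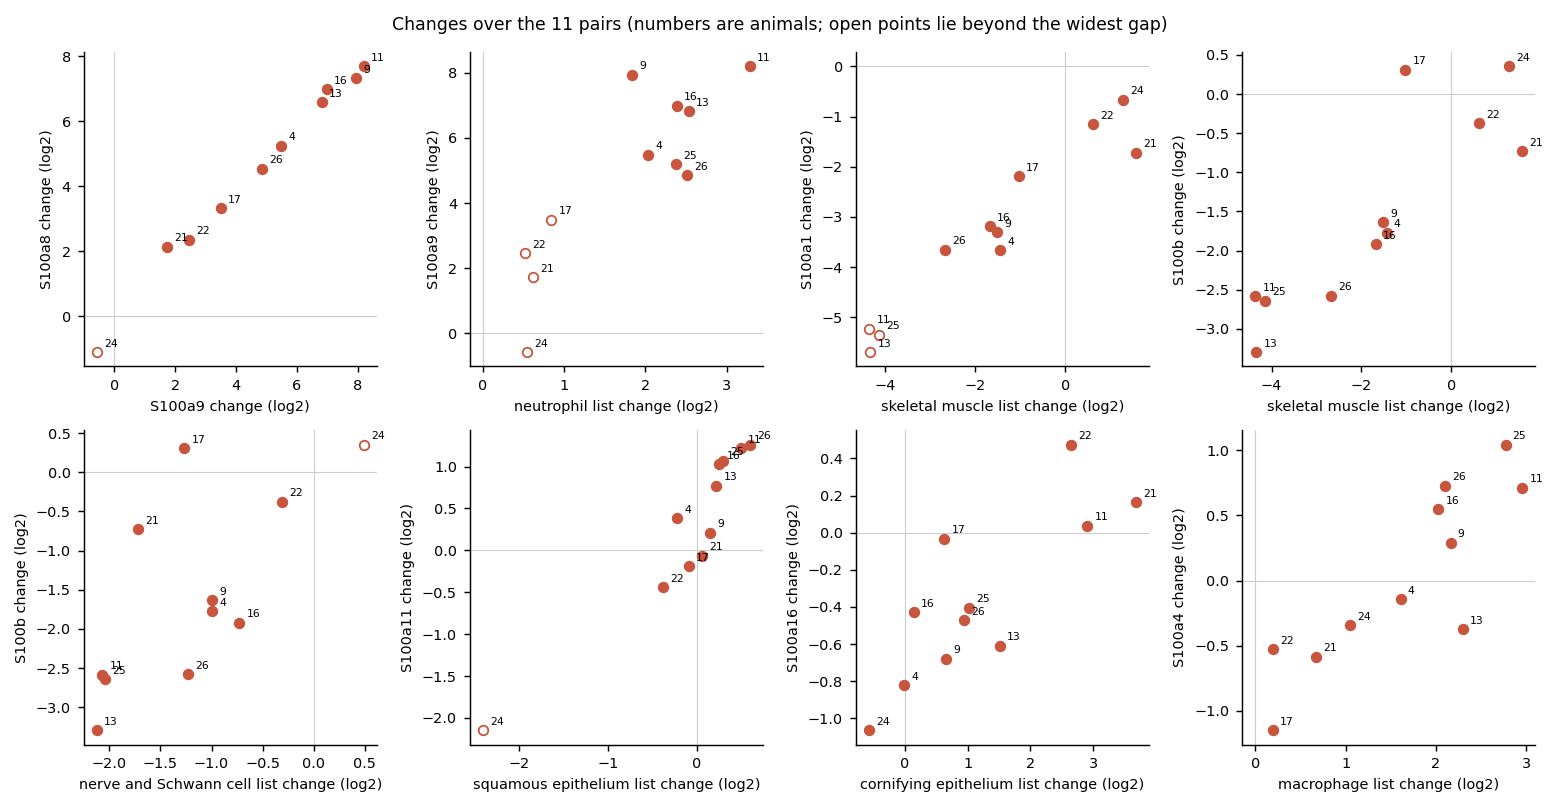
Log2 difference between OSCC and normal tissue of an S100 gene against that of another S100 gene or of a marker list (mean over its genes) in each pair; numbers are animals, and open points lie beyond a gap of over 30% of the range and were left out of the correlation. S100a8 rises with S100a9 along 1 line, S100a1 and S100b lie low where the muscle list lies low, and the 4 pairs with the smallest neutrophil change hold the 4 lowest S100a9 changes.

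S100a13, which takes part in the release of FGF1 from cells, fell by less. Its normal values lay between 1.13 and 2.15 (median 1.66) and its OSCC values between -0.08 and 1.65 (median 0.38). It was lower in OSCC in 10 of 11 pairs, by up to 2.05 in animal 13, and in animal 17 the tissues differed by 0.01. The difference was -1.15 (SE 0.17), a 2.21-fold fall with an OSCC to normal ratio between 0.348 and 0.588 (limma, adjusted p = 0.000642). Animals 4 and 9 gave -1.37 and -1.23, and with scan day as a further term it was -1.30 with an adjusted p of 0.085. S100a13 followed neither the muscle list nor the nerve list past the threshold, and its r with its neighbour S100a1 depended on the pairs kept, at -0.10 over the 7 pairs of the larger cluster (exact permutation p = 0.84, adjusted p = 0.90), 0.47 over all 11 and 0.81 without animals 21, 22 and 24. Fgf1 was not called (log2 difference 0.68, limma adjusted p = 0.0662), and its differences gave r of 0.12 with those of S100a13 over 9 pairs (exact permutation p = 0.76, adjusted p = 0.84 over 11 partner relations).

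S100a6, S100a10, S100a11 and S100a4, 4 members that many epithelial and connective tissue cells share, were not called. S100a6, also called calcyclin, lay between 4.41 and 5.38 in normal samples (median 4.74) and between 4.43 and 6.53 in OSCC samples (median 5.31), with a difference of 0.57 (SE 0.22, limma adjusted p = 0.0492), below 2-fold. It was higher in 7 of 11 pairs. S100a10, which forms a complex with annexin A2, ranged from 4.22 to 5.25 and from 4.23 to 5.65 (medians 4.70 and 4.99), and differed by 0.22 with a 95% interval of -0.18 to 0.61 (limma, adjusted p = 0.336). S100a11, an annexin A1 partner, ranged from 5.34 to 6.60 and from 4.45 to 6.91 (medians 5.69 and 6.19), and differed by 0.28 with an interval of -0.32 to 0.89 (limma, adjusted p = 0.413). S100a4, a partner of non-muscle myosin, ranged from 3.35 to 4.36 and from 2.50 to 4.81 (medians 3.94 and 3.84), and differed by 0.02 with an interval of -0.42 to 0.45 (limma, adjusted p = 0.945).

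The means of these 4 genes hide pairs that moved in opposite directions. In animals 9, 11, 16, 25 and 26 all 4 were higher in OSCC, with S100a6 between 0.68 and 1.64 above normal. In animals 21, 22 and 24 all 4 were lower, S100a11 by 2.15 in animal 24. The study names animals 21, 22 and 24 as examples of variable expression. Leaving them out raises the means of these 4 genes by construction, as all 4 were lower there. The differences were then 0.90 for S100a6, 0.51 for S100a10, 0.72 for S100a11 and 0.21 for S100a4, none of them 2-fold. Of the 18 relations among members with an adjusted p below 0.05, 6 join these 4 genes, S100a10 and S100a11 the closest (r = 0.93 over 10 pairs, permutation p = 0.00028, adjusted p = 0.0063, rho = 0.87, permutation p = 0.0019, adjusted p = 0.021).

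S100a11 followed the squamous epithelium list and several others. Over the 10 pairs without animal 24 r was 0.87 (permutation p = 0.00085, adjusted p = 0.011), rho was 0.93 (permutation p = 0.00037, adjusted p = 0.0080) and r was 0.77 without the 2 farthest pairs. In OSCC r was 0.93 over the same animals (permutation p = 0.00021, adjusted p = 0.0060). In animal 24, set apart in this relation, the squamous list was 2.41 lower in OSCC. That list hardly moved as a whole: of its 17 genes on the array 1 was called higher, Dsg3 of the desmosome, and 1 lower, Krt15 of basal cells, and its mean log2 level ran from 3.27 to 3.88 in normal tissue and from 1.15 to 4.11 in OSCC. Over the same 10 pairs S100a11 also followed the macrophage list (r = 0.89, permutation p = 0.00079, adjusted p = 0.011) and the fibroblast list (r = 0.85, permutation p = 0.0015, adjusted p = 0.011, rho = 0.85, permutation p = 0.0032, adjusted p = 0.028). Over these pairs it ran against the muscle list (r = -0.81, permutation p = 0.0059, adjusted p = 0.027, rho = -0.83, permutation p = 0.0048, adjusted p = 0.033). Against the adipocyte list r was -0.80 over 9 pairs (exact permutation p = 0.0069, adjusted p = 0.029). In OSCC it followed the neutrophil list with r of 0.93 over all 11 arrays (permutation p = 2e-05, adjusted p = 0.0018) and rho of 0.95 (permutation p = 3e-05, adjusted p = 0.0026). S100a4 followed the macrophage list (r = 0.86, permutation p = 0.00083, adjusted p = 0.011, rho = 0.76, permutation p = 0.0086, adjusted p = 0.038) and the fibroblast list (r = 0.85, permutation p = 0.00099, adjusted p = 0.011) over all 11 pairs. Over these pairs S100a6 and S100a10 ran against the muscle list (r = -0.85 and -0.80, permutation p = 0.0016 and 0.0039, adjusted p = 0.011 and 0.02). For S100a4 the muscle relation did not pass (r = -0.61, permutation p = 0.048, adjusted p = 0.11). S100a6 also followed the macrophage list (r = 0.84, permutation p = 0.002, adjusted p = 0.013).

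S100a16 was the only one of the 10 whose values spread less in OSCC than in normal tissue (SD 0.35 against 0.38). It lay between 3.39 and 4.41 in normal samples (median 3.96) and between 2.75 and 3.93 in OSCC samples (median 3.61), was lower in 8 of 11 pairs, and differed by -0.35 (SE 0.15, limma adjusted p = 0.0678). Its differences followed the cornifying epithelium list, which holds cornified envelope genes such as Lor and Sprr1b. Over 11 pairs r was 0.82 (permutation p = 0.0025, adjusted p = 0.015), rho was 0.76 (permutation p = 0.0088, adjusted p = 0.038) and r was 0.80 without the 2 farthest pairs. Among normal arrays alone r was 0.91 (permutation p = 0.00028, adjusted p = 0.0060), rho was 0.91 (permutation p = 0.00027, adjusted p = 0.0043) and r was 0.86 without the 2 farthest. Among OSCC arrays the sign turned with the arrays kept: r was 0.72 over all 11, 0.45 without animals 21, 22 and 24, and -0.73 over the 9 arrays left when animals 24 and 25 are set apart by the widest gap (exact permutation p = 0.023, adjusted p = 0.083), so no direction is given there. The list itself ran from 0.06 to 3.53 in normal tissue and from 0.55 to 3.74 in OSCC, with 6 of 14 genes called higher and none lower. Without animals 21, 22 and 24 the r over pairs was 0.59.

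**Figure D4:**
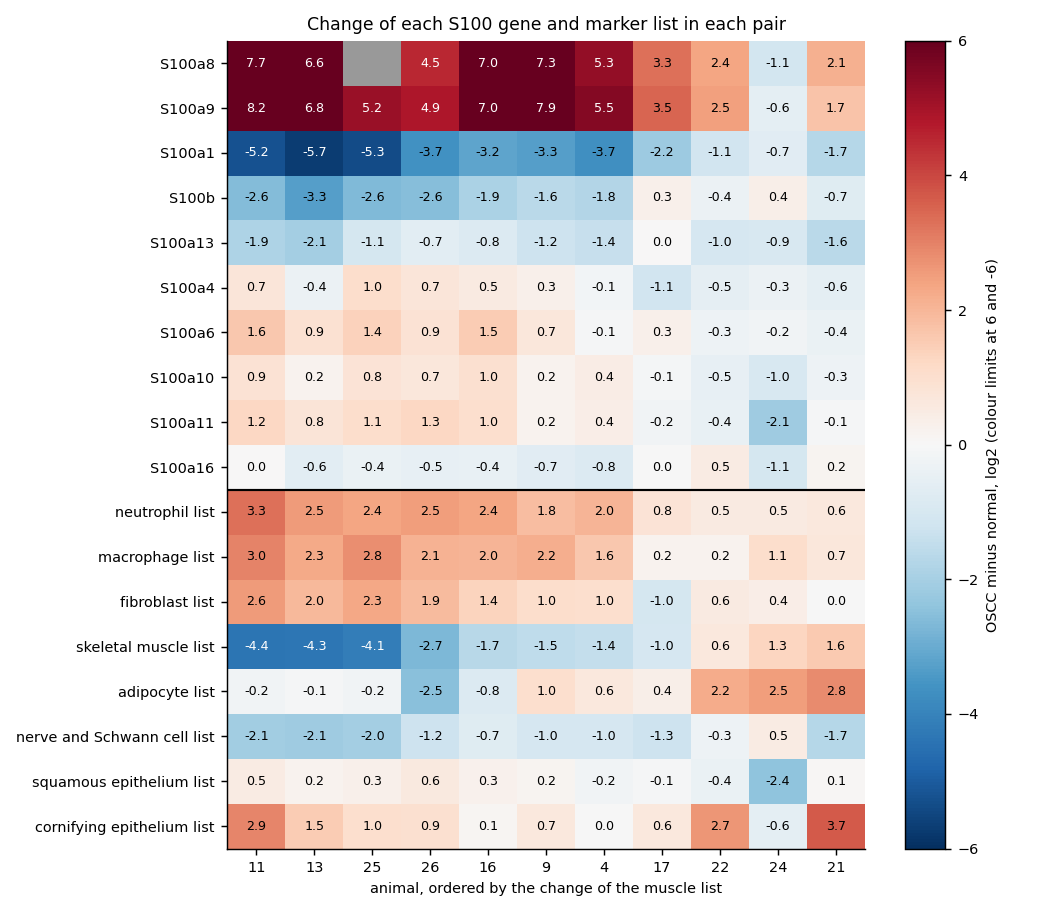
Log2 difference between OSCC and normal tissue of each S100 gene (upper rows) and 8 of the 9 marker lists (lower rows, mean over the genes of the list; the serous gland list is not drawn) in each animal, ordered by the change of the muscle list; the grey cell is the S100a8 spot left out. Animals 11, 13, 25 and 26 hold the lowest muscle list changes, with S100a9 changes of 8.20, 6.81, 5.20 and 4.86. Animals 9 and 16 hold S100a9 changes of 7.94 and 6.99 at muscle list changes of -1.52 and -1.68. The smallest S100a1 changes are those of animals 21, 22 and 24.

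Other marker lists changed as well. Of the macrophage genes 10 of 13 were called higher, of the fibroblast genes 7 of 12, and of the adipocyte genes 0 of 8 were called. The serous gland list moved most, with all 10 genes called higher and a mean log2 difference that ran from 1.13 in animal 25 to 12.4 in animal 17. Against this list the r of S100a13 was -0.93 over the 6 pairs of the larger cluster (exact permutation p = 0.015, adjusted p = 0.047), with rho of -0.83 (exact permutation p = 0.058, adjusted p = 0.15), but 0.28 over all 11 pairs and 0.26 without animals 21, 22 and 24, so its sign rests on the 5 pairs set apart. For S100a1 and S100a8 too few pairs were left. The part of gland RNA in the member differences was not tested. The marker lists were not independent of each other. Over the 11 OSCC arrays the neutrophil list followed the macrophage list (r = 0.93, permutation p = 0.0001, adjusted p = 0.0029) and ran against the muscle list (r = -0.88, permutation p = 0.00043, adjusted p = 0.0056). S100a10 had r of 0.91 with the neutrophil list, 0.89 with the macrophage list and -0.84 with the muscle list in OSCC (permutation p = 4e-05, 0.0002 and 0.0019, adjusted p = 0.0023, 0.0060 and 0.013). Of the 90 relations of members with lists over pairs, 28 had an adjusted p of r below 0.05, as did 6 of 90 among normal arrays and 34 of 90 among OSCC arrays. A member and a list on the same array share its scaling, and the part of this in the relations was not tested.

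Among partner pairs chosen after the values were seen, the partner genes of 2 members moved with them, and not more closely than other genes did. S100a10 gave r of 0.99 with Anxa1 and 0.98 with Wsb1. Over all 11 pairs S100a11 gave 0.94 with Anxa1, against 0.98 with each of Znf668, RGD1559682 and Epha2. The differences of S100a10 and Anxa2 varied together over the pairs (r = 0.97 over 11 pairs, permutation p = 1e-05, the smallest that can be reached, adjusted p = 0.00011, rho = 0.93, permutation p = 0.00019, adjusted p = 0.0021, r = 0.93 without the 2 farthest pairs), and neither was called. S100a11 and Anxa1 gave r of 0.96 over 10 pairs without animal 24 (permutation p = 4e-05, adjusted p = 0.00022, rho = 0.89, permutation p = 0.0012, adjusted p = 0.0066). Anxa1 itself rose, from a median of 4.17 to 5.74 (log2 difference 1.24, limma adjusted p = 0.00372). The other 9 partner relations computed did not pass, among them S100a9 with Tlr4 (r = 0.67, permutation p = 0.026, adjusted p = 0.070) and S100a4 with Myh9, a heavy chain of non-muscle myosin (r = 0.63 over 10 pairs, permutation p = 0.052, adjusted p = 0.096).

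Among 24 receptors and partners of S100 proteins on the array, 4 were called higher, 2 lower and 18 not. Tlr4, a receptor for S100A8 and S100A9, was higher in all 11 pairs (log2 difference 2.18, SE 0.23, limma adjusted p = 0.000124) and was well above background on 4 of 11 normal arrays and on all OSCC arrays. Ager, the receptor for advanced glycation end products that several S100 proteins bind, differed by -0.10 (limma, adjusted p = 0.631). Alcam (1.49) and the urokinase receptor Plaur (2.63) were also called higher, each well above background on 10 of 11 normal arrays, and the fatty acid transporter Cd36 (-1.51) and Anxa6 (-1.16) lower.

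Of 8 other S100 genes on the array 1 was called. S100a7a, the rat relative of psoriasin, lay between -6.33 and 0.78 in normal samples (median -2.26) and between -1.16 and 2.37 in OSCC samples (median 0.82), and was higher in all 11 pairs by a mean of 3.23 (SE 0.52, limma adjusted p = 0.000857). It was well above background on 8 of 11 normal arrays. S100vp was so on 0 arrays of either tissue, S100z on 1 array of each, S100g on 4 OSCC arrays, and S100a5 on 5 normal and 4 OSCC arrays. Of the fused-type members, long proteins of the cornified layer with an S100 domain, Flg was called higher (1.89, limma adjusted p = 0.0369, well above background on 4 of 11 normal arrays), and Rptn (0.71) and Tchh (-1.59) were not.

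The genes whose differences over the pairs were most like those of a member were taken from 9388 genes (9391 for S100a8) well above background on at least 11 arrays, by Pearson's r and with no test. For S100a1 they were Sypl2 (0.99), Nrap (0.99) and Cox8b (0.98), all 3 lower in OSCC by between 2.57 and 2.92. For S100a8 they were Pus7l, Mmp3 and Limk1 (0.96, 0.96 and 0.94, over 10 pairs), and for S100a9 Hist1h2ail, Mmp3 and Leprel1 (0.93, 0.92 and 0.92). S100a10 was closest to Anxa1 (0.99), Wsb1 and Med15, S100a11 to Znf668 (0.98), RGD1559682 and Epha2, and S100b to Zer1 (0.98), Ezh1 and Ngly1. For S100a6 they were Ifngr1 (0.97), Slc10a3 and Nr4a2, for S100a4 Lrrc33 (0.95), Sv2a and Rapgef5, for S100a13 Gpbp1l1 (0.94), Cntrob and Atrn, and for S100a16 Thop1 (0.93), Fetub and Atg2a.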

How the data were processed

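RNA of 11 pairs of OSCC and normal tongue was measured on 22 one-color Agilent arrays with 42877 spots for 30367 probes. The deposited intensity values are processed signals, from which the authors, using Agilent Feature Extraction 9.5.3.1, had subtracted a fitted background surface and which were then divided by a surface for spatial trends. The deposited ratio values hold the same signals scaled by the authors to the 75th percentile of each array. Both steps act before any comparison and set the level of dim probes. Precision is limited by the number of arrays and, for dim probes, by signal over background.

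Control spots and 9196 outlier spots (0.975%) were left out, log2 signals of a probe's spots were averaged, and each array's 75th percentile was subtracted, which ran from 236.8 to 654.9 in normal tissue and from 338.7 to 1414 in OSCC. No probe was filtered for low signal. The tissues were compared in 1 linear model per probe (limma 3.58.1, R 4.3.3) that held a term for the rat and a term for the tissue, and p-values were adjusted over the 30367 probes by the Benjamini-Hochberg method. The rat was a term because each gave both tissues; the 2 tissues of 1 rat, each as its distance from the mean of that tissue, correlated between -0.21 and 0.24 (median -0.02). The labels and methods give 1 sample of each tissue per rat, so the spread is that between rats. On simulated data for this comparison with 30299 probes, 78 of 100 probes changed by 1.5 log2 units and 98 of 100 changed by 3 were called, with 6 unchanged probes called.

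Relations used Pearson and Spearman correlation (Python 3.11.15) with 100000 two-sided permutations, or all of them for fewer than 10 values. Where the widest gap between values exceeded 30% of the range, only the larger cluster of at least 6 was used. List values are means of log2 levels over the genes of a list. Genes were named by the rule that takes the 10 members, the lists of other S100 genes, fused-type genes and receptors and partners, the 3 genes most like each member, and defining genes of marker lists. The members and lists were chosen with earlier results of these data known, and the partner pairs and slow muscle genes after the values were seen. Positions of probes are rn4 as in the array annotation, and 7 list genes were found on the array by their current RefSeq symbol only. The alternatives were other scalings and background corrections, the authors' scaled values, probe filters and averages, scan day, slide, the unpaired fit, pairs left out and the methods' t-test. Values of 2 single genes of the nerve list are not reported here.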

Additional observations from a re-analysis of the deposited data

How the results depend on the processing

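The same number of members, 5, was called under every alternative except scan day as a further term, which left 0 called (0 higher and 0 lower) at an adjusted p below 0.05 and 4 at an unadjusted p below 0.05 (all but S100b, p = 0.066). With that term the values were -3.48 for S100a1, 6.29 for S100a8, 6.71 for S100a9, -1.30 for S100a13 and -1.70 for S100b. Only the pairs of animals 4 and 9 separate day from tissue in that fit. Without the pairing (no replicate block: tissue as the only term) 5 members were called, with differences from -3.25 for S100a1 to 4.78 for S100a9, and it changed no other call. Leaving out each replicate in turn gave 5 calls each time. S100a4 changed direction when arrays were scaled to their median (-0.18), and ran from -0.08 to 0.14 when pairs were left out in turn, lower in OSCC without animal 9 (-0.01), 11 (-0.05), 16 (-0.03), 25 (-0.08) or 26 (-0.05). Other scalings moved the median of all probes, from -0.24 to -0.03 with quantile normalization, -0.44 with scaling to the median, -0.15 with the percentile over detected probes, -0.08 with normexp and -0.14 with the authors' values. S100a11 without animal 24, the pair with its lowest difference, differed by 0.53, below 2-fold. The mean of both S100b probes gave -1.06.

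The counts of relations past the threshold were less stable. Of relations between pair differences and lists, 28 passed. Quantile normalization gave 47 (26 of them shared with the 28), the pairs scanned on different days 1, and the 8 pairs without animals 21, 22 and 24 gave 0. Each pair left out in turn gave between 8 (without animal 24) and 20, more than 1.5 times fewer also without animals 4, 11, 13, 17, 21, 22, 25 or 26. Within a tissue 40 passed, with 19 under normexp, 0 without animals 21, 22 and 24, and 9 (without animal 17) to 39 with each animal left out, also fewer by that factor without animal 9, 11, 13 or 22. Among members 18 passed, with 7 under scaling to the array median, 11 with the mean of all probes, 0 without animals 21, 22 and 24, and 5 (without animal 21) to 16 with each animal left out, also fewer without animal 17, 24 or 25. Fewer pairs leave larger permutation p-values and other gaps between pairs, and the part of each was not tested.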

Other observations

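Muscle genes did not all run with S100a1. A list of 7 genes typical of slow muscle fibres, Myh7, Myl2, Myl3, Tnni1, Tnnc1, Tnnt1 and Casq2, was drawn up after the values of the other muscle list were seen, and is given as values without a test of the list. Of the 7, 5 were called higher in OSCC and 1 lower, with log2 differences of 4.70 for Myh7, the slow myosin heavy chain (limma, adjusted p = 0.00081), 4.12 for Tnnc1 and 4.01 for Tnnt1, troponin subunits that were higher in all 11 pairs, 3.50 for Myl2 and 1.78 for Tnni1. Myl3 was lower (-1.10) and Casq2 was not called (0.86). Their mean was higher in OSCC in all 11 pairs, by 0.31 in animal 17 and by up to 5.35 in animal 21, and S100a1 was lower in each of these pairs. In animal 11, for example, the slow genes were higher by 2.85, while S100a1 was lower by 5.23 and the muscle list described above by 4.36.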
